A study of Caenorhabditis elegans with 2 samples.

Results

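Of the 30000 peaks that replicate 1 gave for eGFP-tagged ZTF-11 in larvae of Caenorhabditis elegans, 5797 lay on chromosome X (19.3%), and these 5797 positions are described here. They were taken by their chromosome alone, with no limit on the strength of a peak. By the name the authors gave it, the list holds background as well as peaks, since it served as input to a later selection, so an entry is not by itself a bound position. Replicate 1 lists exactly 30000 entries, all on the nuclear chromosomes, and replicate 2 lists 2036, of which 2007 are nuclear. Whether a limit on their number or a filter was applied is not stated, and the X count, the density and the recurrence shares below depend on where each list ends. The data are peak lists from chromatin immunoprecipitation followed by sequencing (ChIP-seq), made by the authors from whole third-stage (L3) larvae. There was 1 group with 2 biological replicates, both of strain OP236, which carries the unc-119(ed3) allele on chromosome III and the insertion wgIs236 that supplies the tagged protein. The sex is given as pooled male and female, the age as unknown, and the library size range as 150 to 350. The antibody field names ztf-11, so whether the tag or the protein itself was bound by the antibody cannot be told apart, and what drives the transgene was not given in the sources used here. As whole larvae were used, the cells that gave a peak are unknown. No other strain, stage or untagged larvae were used here.

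ZTF-11 belongs to the Myt1 family of zinc finger proteins, and in worms it is known for repressing non-neuronal genes while neurons form. In C. elegans, X is also the chromosome on which a condensin-like dosage compensation complex assembles in hermaphrodites, which have a pair of X chromosomes. The complex loads at recruitment sites on X, many of which carry a short motif around GCGCAGGG, and spreads from there along the chromosome, lowering the expression of X genes towards the level of males with their lone X.

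The sequences that matter for what follows are the places on X where those 8 bases occur, on either strand. They were read from the RefSeq sequence of the WBcel235 assembly, which is ce11, and each is printed 5′ to 3′ on the strand of the motif with the 8 bases in capitals. The first 10 lay in a peak of both replicates and have the letters atc before the capitals.
mom-1 intron, chrX:6296565-6296594, plus strand: agataggtatcGCGCAGGGaagatttaccg
near F20B6.9, chrX:4209255-4209284, minus strand: ttgccgctatcGCGCAGGGacacctctttc
upstream of xol-1, chrX:8036390-8036419, minus strand: aattttttatcGCGCAGGGacgtatgtcga
upstream of xol-1, chrX:8036424-8036453, plus strand: atttttccatcGCGCAGGGaacccttcgat
near W02H3.3, chrX:11094114-11094143, minus strand: cgttttatatcGCGCAGGGagcttatgcat
near F22H10.2, chrX:16682161-16682190, minus strand: aagaaaacatcGCGCAGGGaacatcaaatt
near gtr-1, chrX:806663-806692, plus strand: gtgcgattatcGCGCAGGGgtgtttgttgc
near nspc-17, chrX:14525889-14525918, minus strand: tattgcctatcGCGCAGGGacagatgtggt
Y41G9A.17 intron, chrX:2997112-2997141, minus strand: ttaaatttatcGCGCAGGGaggaagtagcc
Y41G9A.17 intron, chrX:2997287-2997316, minus strand: gagatcgtatcGCGCAGGGaggaagtatgg

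For contrast, the next 5 show a site without atc in a strong replicate 1 peak that was not in replicate 2, a site with atc in a weak replicate 1 peak, one with atc in replicate 2 and the pooled list but not in replicate 1, one with atc in no list, and one without atc in no list.
pks-1 exon, chrX:5429579-5429608, plus strand: cattaaatttaGCGCAGGGaggacgccgtt
weak replicate 1 peak, chrX:1610571-1610600, plus strand: attttcagatcGCGCAGGGcagagcggggg
not in replicate 1, chrX:13514547-13514576, plus strand: atacctttatcGCGCAGGGatattgaaatc
no list, chrX:2312649-2312678, minus strand: tacagttcatcGCGCAGGGcttccatcgaa
no list, chrX:439181-439210, plus strand: ccacaatgtcgGCGCAGGGactcacaaacc

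The X peaks of replicate 1 formed a short head of strong, recurring positions and a long tail that was rarely found again. Each peak was 320 bp wide. The authors' signal score, their own value per peak in units that the labels leave unstated, ran from 6.32 to 74.2 with a median of 8.93. The -log10 q-values ran from 0.124, which is weak, to 2.16. X held 327 peaks per Mb against 258 to 321 on the 5 autosomes, and 28 of the 100 strongest and 210 of the 1000 strongest peaks of the list. On the older ce10 build the corresponding list held 5786 X peaks. Replicate 2 gave a far shorter list, with 351 of its 2007 nuclear peaks on X (17.5%), and the pooled list of both replicates held 131 X peaks. The thresholded list, which the authors drew from these lists, held 33 of its 73 nuclear peaks on X (45.2%), against 5 to 10 on each autosome.

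Of the 5797 X peaks, 155 overlapped a replicate 2 peak on X by at least 1 bp (2.67%, exact Clopper-Pearson 95% interval 2.27 to 3.12), where 2.39% of all 30000 replicate 1 peaks did so. The pooled list was overlapped by 137 X peaks (2.36%, interval 1.99 to 2.79), against 2.11% of all peaks, and the thresholded list by 33 X peaks (0.569%), against 0.26%. These shares of all peaks include the X peaks themselves. Over the whole X list, strong peaks included, the share in replicate 2 was thus close to that of all peaks and lay just above the range of the autosomes, 1.78% to 2.62%. Seen from the other side, 142 of the 351 replicate 2 X peaks (40.5%) and 127 of the 131 pooled X peaks (96.9%) lay on a replicate 1 peak. A 320 bp interval would overlap a replicate 2 peak at 1.33% of positions on X and a pooled peak at 0.469%, to be set beside the 2.67% and 2.36%. For the other direction no such share was computed. It would be higher, as replicate 1 lists far more X peaks, a median of 1965 bp apart. The intervals cover counting error over positions only, and no sample spread can be given for a position that is or is not in a list. Replicate 1 peaks can overlap one another, and the 155 overlapped 142 replicate 2 peaks. The intervals count each of them as a separate position all the same. The pooled and thresholded lists were made from both replicates, so their overlap with replicate 1 is not independent of it. Replicate 2 shares with replicate 1 its control file.

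Membership fell into few patterns. In no other list were 5578 of the 5797 peaks. A further 82 were found in replicate 2 alone, 60 in the pooled list alone, and 44 in both of these. All 4 lists held 29, and 4 were in the pooled and thresholded lists without being in replicate 2. Among the 29, the peaks of X rank 55 and 396 overlap each other and lay on the same peak of each other list. The median rank among X peaks, from the strongest down, was 1642 for those in replicate 2, 211 for those in the pooled list and 22 for those in the thresholded list.

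Recurrence was steeply tied to rank. Among the 25 strongest X peaks, with scores from 25.7 to 74.2, 14 were in replicate 2 (56%) and 23 in the pooled list (92%). On the autosomes, 12% to 32% of the 25 strongest peaks of each chromosome were in replicate 2. Their lowest scores were 21.4 to 23.8 and their highest 30.8 to 62.5, so equal ranks are not matched for score. X ranks 26 to 100 had 10 of 75 in replicate 2 (13.3%, autosomes 6.67% to 10.7%), and the next 300 had 18 (6%, autosomes 2.67% to 4.67%). Beyond rank 400, X lay within the range of the autosomes, at 2.83% for the next 600 peaks (2.17% to 3.83%) and 2% for the remaining 4797 (1.44% to 2.09%). As X is 1 chromosome of 6, no test was made of its place beside the autosomes.

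**Figure D1:**
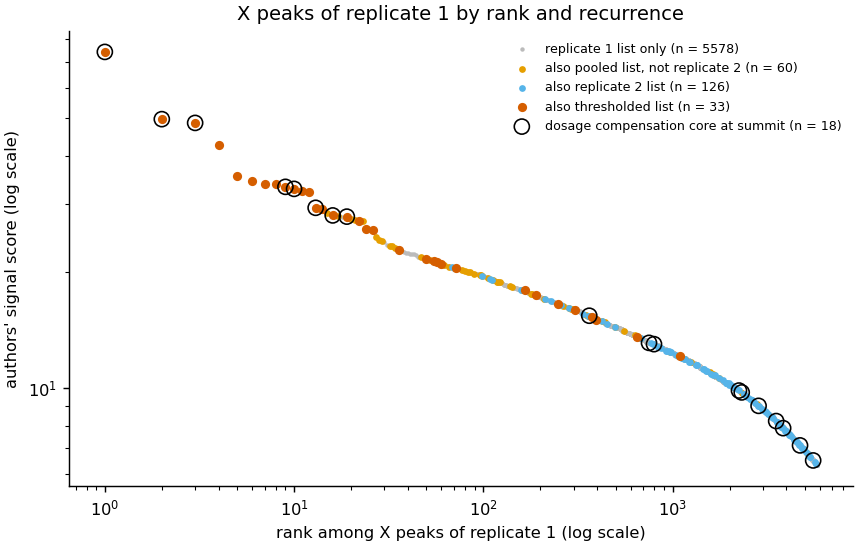
The authors' signal score of each X peak of replicate 1 (log scale) against its rank among X peaks (log scale), coloured by the further list that holds it, with the thresholded list taking precedence over replicate 2 and replicate 2 over the pooled list. Rings mark the 18 peaks with GCGCAGGG within 100 bp of the summit, 8 of which have rank 19 or better and the next of which has rank 363.

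**Figure D2:**
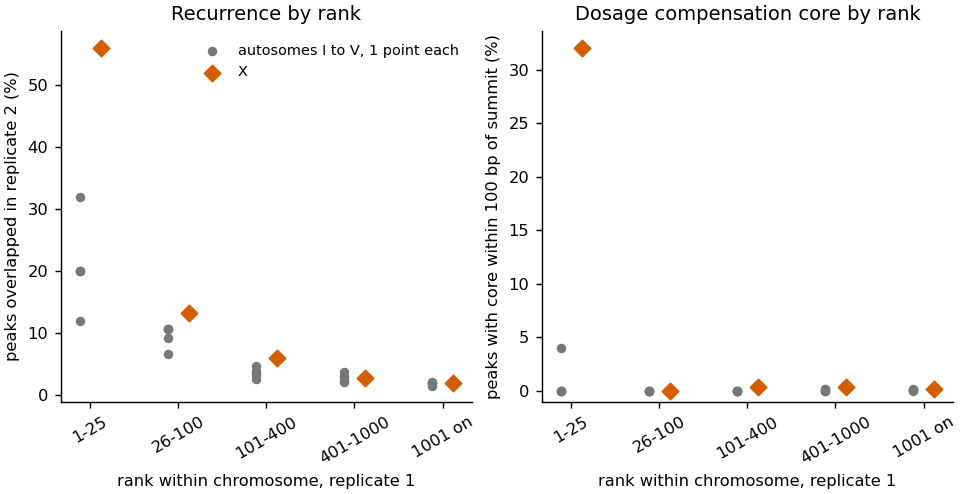
Share of replicate 1 peaks in replicate 2 (left, percent) and with GCGCAGGG within 100 bp of the summit (right, percent) by rank within the chromosome, for X (diamonds) and each of the 5 autosomes (circles). X stands above every autosome up to rank 400 on the left, and for ranks 1 to 25 on the right, where 32% of X peaks compare with 0% to 4%.

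The strongest positions of replicate 2 pointed to the same places. Of its 25 strongest X peaks, 24 lay on a replicate 1 peak (96%), at a median X rank of 21.5 there, and 9 held GCGCAGGG within 100 bp of the summit. The share fell to 60% for replicate 2 ranks 26 to 50, to 44% for ranks 51 to 100 and to 32.3% for the 251 that followed. What share of X positions would overlap a replicate 1 peak was not computed beside these. Over the 155 shared X peaks, Spearman's rho between the scores of the replicates was 0.469, and over the 24 of them with replicate 1 X rank 100 or better it was 0.434. These are descriptions over positions that share the 2 libraries and a control file, and only positions listed in both could enter.

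Among the 25 strongest X peaks, 8 carried GCGCAGGG within 100 bp of the summit (32%, exact interval 14.9 to 53.5), and 7 of these were also in replicate 2. Among the 125 peaks of the same rank on the autosomes 1 carried it (0.8%). The strongest of all, X rank 1 and first in the whole list, lay in an intron of mom-1, a gene needed for Wnt secretion, at 6296392 to 6296711. Its score was 74.2 in replicate 1 and 37.8 in replicate 2, and it was the top X peak of the pooled list with 107. The peak near F20B6.9 (X rank 3, 4209137 to 4209456) had 48.6 in replicate 1 and 32.7 in replicate 2. Both had the higher score in replicate 1 and lay at X rank 11 and 15 of replicate 2.

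The other carriers found in both replicates had the higher score in replicate 2. The intergenic peak 4902 bp upstream of xol-1, the switch gene of sex determination and dosage compensation, had 33.2 in replicate 1 and 48.4 in replicate 2. The peak 3995 bp downstream of the 5′ end of W02H3.3 had 32.8 and 67.8, with the same summit position in both replicates. The peak 705 bp upstream of nspc-17 had 28 in replicate 1 and 68.8 in replicate 2, where it was the strongest of all X peaks. The remaining ones, near gtr-1 and in an intron of Y41G9A.17, had 29.3 and 27.8 in replicate 1 and 43.4 and 52.2 in replicate 2. Scores of separately made lists may be scaled differently, so only the order within each list can be compared.

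A pair of further peaks among the 25 strongest had the 8 bases inside the peak but not wholly within 100 bp of the summit. The peak near F22H10.2 (X rank 11, score 32.4 in replicate 1 and 43.6 in replicate 2) had it 98 bp from the summit by its centre. The peak near F19H6.5 (X rank 6, score 34.4 and 35.8) had it 143 bp away, outside the replicate 2 peak. The carrier not found in replicate 2 was the second strongest X peak, at 5429414 to 5429733 in an exon of pks-1, a polyketide synthase gene. It had a score of 49.7 in replicate 1 and 65.5 in the pooled list, and no replicate 2 peak overlapped it.

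Of the strongest 25, 14 recurred in replicate 2 and 11 did not, and their base composition is set side by side here. The sequence within 100 bp of the summits of the recurring 14 had a median GC content of 42.8% (31.8% to 58.7%), and those of the other 11 had 52.7% (43.8% to 57.7%). The ranges overlapped, but GC content above 48% was found in 2 of the 14 and in 9 of the 11. On the autosomes, the medians of the 25 strongest peaks per chromosome were 45% for the 26 recurring and 46.8% for the 99 others. Above 48% were 9 of the 26 and 36 of the 99. Over the strongest 100 on X, the medians were 42.8% for the 24 recurring and 45% for the 76 others, with 3 and 29 of them above 48%. Over the strongest 100 per autosome the order of the medians was the opposite, at 45.8% and 44.3%. There, 23 of 62 recurring peaks and 131 of 438 others were above 48%. X as a whole had 35.2% GC. Because recurrence and score come from the same libraries, what part base composition had in either was not tested.

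The non-recurring 11 contained most of the strong X peaks at promoters, here summits at most 500 bp from a protein-coding 5′ end. Those were at vang-1, a planar cell polarity gene (score 27.9), eef-1A.2, a translation elongation factor (27.4), grk-1, a G protein-coupled receptor kinase (27.2), and osm-11, a Notch co-ligand (25.7). Further peaks of the 11 lay 729 bp upstream of the alpha spectrin gene spc-1 (27.8), 666 bp upstream of the bromodomain gene bet-2 (27.1), 2909 bp upstream of sma-9, which encodes a transcription factor of BMP signalling (28.4), and in introns of kin-20, a casein kinase 1 gene (27.1), and F09A5.3 (29.1). Of the 11, 9 were in the pooled list, and the exceptions were those at spc-1 and osm-11. Absence from replicate 2 refers here to the peak itself, not to its gene. A weaker peak 811 bp upstream of grk-1 (X rank 305, score 15.9) was in all 4 lists. Weaker peaks in an intron of F09A5.3 (X ranks 1118 and 4422) overlapped a replicate 2 peak of X rank 95. The only strong promoter peak that recurred was that 96 bp upstream of hsp-3, a chaperone gene of the endoplasmic reticulum, which ranked 8 on X in replicate 1 (33.8) but 139 in replicate 2 (17.4).

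The other recurring peaks of the strongest 25, with no GCGCAGGG anywhere in the peak, lay outside protein-coding genes and their promoters. They were those near K02D3.1 (X rank 4, score 42.7 in replicate 1 and 37.4 in replicate 2), near C30E1.4 (rank 5, 35.4 and 36.2, and rank 12, 32.2 and 20.7, 1135 bp apart) and near F55G7.5 (rank 24, 25.9 and 38.4). Just below the 25, the peak 2528 bp from ZK899.6 had X rank 26 in replicate 1 (25.6) and 3 in replicate 2 (57.5). An approximate form of the motif was looked for within 100 bp of these summits by the best match to 12 letters, ATCGCGCAGGG followed by A. The letters beside the 8 bases are the most frequent ones at the sites in peaks of both replicates. The 12 letters are therefore not independent of these data. The peak near F55G7.5 matched 11 of the 12, that near K02D3.1 and that of rank 5 matched 7, and those of rank 12 and near ZK899.6 matched 8. Of the 33 X peaks of replicate 1 that overlapped the thresholded list, 25 had no exact GCGCAGGG within 100 bp of the replicate 1 summit. Of these, 3 matched at least 11 letters (12%), those near F22H10.2, F55G7.5 and fbxb-58. The peak near F22H10.2 holds the exact 8 bases farther from its summit, at 1 of the sites that set the letters. Among all windows of that size on X, 0.0352% matched at least 11 of the 12.

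Seen from the sequence, X has 81 occurrences of GCGCAGGG on either strand (4.57 per Mb), and the autosomes have 233 (2.82 per Mb). A replicate 1 peak covered 28 of the 81 (34.6%), a replicate 2 peak 16 (19.8%), peaks of both replicates 15, and a peak of any list 29. On the autosomes a replicate 1 peak covered 24 of the 233 (10.3%) and a replicate 2 peak 1. That lone site, at III 10989734 to 10989741, lay in the peak of rank 6 on III, with a score of 30.4. The same letters in reversed order, GGGACGCG, occur 82 times on X, and a replicate 1 peak covered 13 of them (15.9%). Among windows tiled over X that reach 100 bp either side of their centre, 0.0851% held GCGCAGGG, against 18 of the 5797 peaks (0.311%, interval 0.184 to 0.49). No occurrence among the 81 is called a recruitment site here, since no table of such sites was used.

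The X sites that occur in close pairs all lay in peaks of both replicates. There are 5 places on X where GCGCAGGG occurs again within 320 bp, 28 to 175 bp apart, and all 10 sites lay in peaks of all 4 lists. These are the positions in mom-1, upstream of xol-1, near W02H3.3, near gtr-1 and in Y41G9A.17. The strands differ between them, with the sites of 4 pairs pointing the same way and those upstream of xol-1 pointing apart. The autosomes have 4 such pairs, 55 to 255 bp apart, 3 on IV and 1 on V, and none of their sites lay in any list. Of the 71 X sites that stand alone, 18 lay in a replicate 1 peak (25.4%), 6 in a replicate 2 peak (8.45%) and 5 in both.

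The bases beside the 8 were more uniform at the sites with peaks in both replicates. Among the 15 sites in peaks of both replicates, the base just before was C in 13 and the one before that T in 13. The third base before was A in 10 and T in 5, and the base just after was A in 12. The 15 include the 10 sites of the 5 close pairs, so they are not 15 separate places. In the Y41G9A.17 pair, both sites have tatc before the capitals and aggaagta after them. Among the 52 sites in neither replicate, the base just before was C in 14 and T in 21, and the base just after was A in 15. The full run ATCGCGCAGGG, looked for after these flanks had been seen, occurs 13 times on X (0.734 per Mb) and 2 times on the autosomes. Of the 13 on X, 11 lay in a replicate 1 peak (84.6%), 11 in a replicate 2 peak and 10 in both. The exceptions are those printed above: 1 in a replicate 1 peak of X rank 5534, 1 in replicate 2 and the pooled list but not in replicate 1, and 1 in no list. Without atc before it, GCGCAGGG lay in a replicate 1 peak at 17 of 68 sites on X (25%) and in a replicate 2 peak at 5 (7.35%). The autosomal 2 lay in no list, and 24 of the other 231 autosomal sites lay in a replicate 1 peak (10.4%).

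Sites in peaks of both replicates lay close to the replicate 1 summit. The centre of the 8 bases was 0 to 129 bp from it, with a median of 32 bp, and 10 of the 15 sites were within 50 bp. At the 13 sites in a replicate 1 peak but no replicate 2 peak, the median was 57 bp (7 to 143), and 6 were within 50 bp. The latter peaks had X ranks from 2 to 5534. A site was classed by whether a replicate 2 peak covered it, so one far from a shared summit more readily falls among the 13. The site 143 bp away lay in the peak of X rank 6, which itself overlaps a replicate 2 peak. The 15 include the 10 sites of the close pairs. For these reasons the medians are given side by side only.

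**Figure D3:**
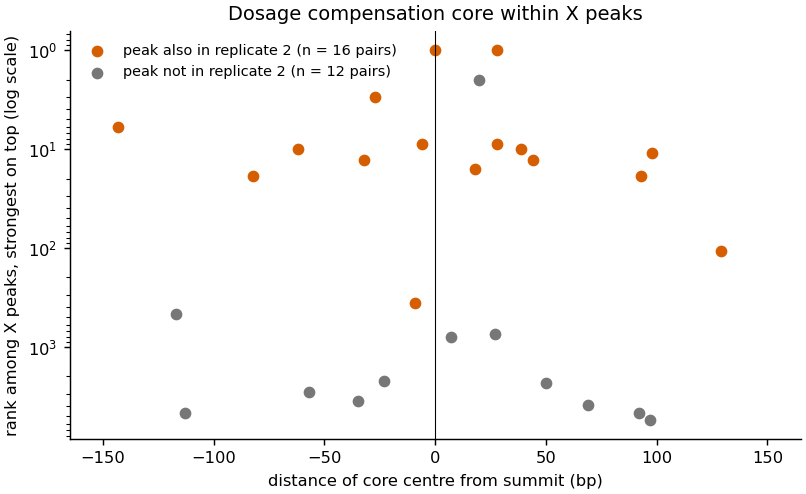
Distance of the centre of each GCGCAGGG from the replicate 1 summit (bp) against the rank of the peak on X (log scale, strongest on top), for the 28 sites inside a replicate 1 peak. Sites of peaks that overlap a replicate 2 peak (orange, 16) lie at ranks 1 to 19 in 14 cases, all but that of rank 6 within 100 bp of the summit, and those of other peaks (grey, 12) lie at lower ranks apart from the one in pks-1.

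Transfer RNA genes were a second setting in which X peaks recurred. Summits at most 500 bp from a tRNA 5′ end made up 25 of the 155 peaks in replicate 2 (16.1%, interval 10.7 to 22.9) and 105 of the 5642 others (1.86%), while 1.29% of X bases lie that close. Of the 276 tRNA genes on X, 149 had a replicate 1 peak within 500 bp (54%) and 31 had one that was also in replicate 2 (11.2%). Protein-coding genes had 35.4% and 1.06% of 2731, and microRNA genes 21 and 4 of 74.

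Of the 29 peaks in all 4 lists, 6 lay near a tRNA gene. The strongest of these by replicate 2 score were the peak upstream of xol-1, 346 bp from a tRNA gene, and the peak of X rank 166 near ets-5, an ETS transcription factor gene (17.9 in replicate 1, 38.5 in replicate 2), 32 bp from one. The other 4 were the peaks of X rank 50, 72, 189 and 247, with tRNA 5′ ends 68, 9, 23 and 81 bp from the summit. In the 5 without the xol-1 position, 22.9% to 39.4% of the 32-base words around the summit occur more than once in the genome, while the xol-1 position had 0%. The peak of X rank 7, 57 bp from a tRNA 5′ end, had a score of 33.8 in replicate 1 and was in the pooled and thresholded lists but not in replicate 2. Repeated sequence of this kind can receive reads of other copies, and its part in these peaks was not tested. Among all strongest-25 peaks, 23 held no such repeated word.

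The remaining peaks in all 4 lists, with neither GCGCAGGG within 100 bp nor a tRNA gene near, included several that were among the 25 strongest X peaks of replicate 2. Their ranks come from lists of 5797 and 351 X peaks and are given side by side, not as a difference in strength. The peak 1008 bp downstream of the 5′ end of T27A8.7 had X rank 650 in replicate 1 (13.6) and 8 in replicate 2 (43). The peak 472 bp upstream of ftt-2, a 14-3-3 protein gene, had X rank 1089 (12.1) and 16 (32.6). Those in an intron of cab-1 (373 and 19), near F56C3.1 (57 and 18), upstream of the F-box gene fbxb-58 (36 and 17) and upstream of the sphingomyelin synthase gene sms-2 (60 and 21) were further ones. The summits of the fbxb-58, F56C3.1 and sms-2 peaks lay 78, 11 and 6 bp from those of replicate 2.

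By gene context, the X list as a whole lay mostly in protein-coding gene bodies and its recurring peaks more often outside them. Only protein-coding genes set the class, so a summit called intergenic can lie in or beside a tRNA or other noncoding gene. Of all 5797 summits, 17.6% were at promoters (interval 16.6 to 18.6), 31.8% in exons, 23.9% in introns and 26.8% in intergenic sequence, in that order of precedence. X sequence itself is 15% promoter, 20.1% exon, 27.2% intron and 37.7% intergenic by the same rule. Peaks in exons thus exceeded the share of exon sequence, on the autosomes too, where 37.9% of peaks and 23% of sequence were exonic. Among the 155 X peaks in replicate 2, exons held 12.3% and intergenic sequence 42.6%. With genes of every type counted, 45.8% of these 155 lay within 500 bp of a 5′ end, against 32.4% of all X peaks.

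Intergenic positions made up 42 of the 100 strongest X peaks, against 21 to 24 of the 100 strongest on each autosome, and exons 17 against 29 to 46. Of the strongest 25, 15 were intergenic, 5 at promoters, 4 in introns and 1 in an exon, and their median distance to a protein-coding 5′ end was 2538 bp. Of the 33 X peaks of replicate 1 that overlapped the thresholded list, 25 were intergenic by their summit (75.8%). X has 154 protein-coding genes per Mb against 209 on the autosomes, and its intergenic share is larger than their 28.1%. The promoter share hardly moved with rank, at 18% of the strongest 100 and 17.3% beyond rank 1000.

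**Figure D4:**
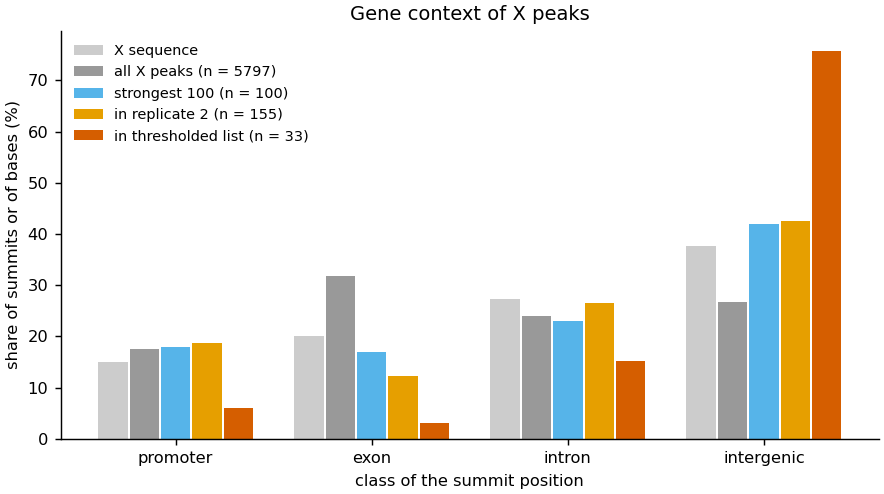
Share (percent) of X sequence and of replicate 1 X summits in each class of position, for all 5797 peaks, the strongest 100, the 155 in replicate 2 and the 33 in the thresholded list. Classes were set by protein-coding genes alone. Exon summits fall from 31.8% of all peaks to 3.03% of those in the thresholded list, and intergenic summits rise from 26.8% to 75.8%.

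Along the chromosome, peaks were spread over the whole of X, with fewest at its left end. Of 10 equal stretches of X, the leftmost held 400 peaks and the rightmost 508, and the others held 561 to 652. The middle of 3 equal parts held 36.1% of all X peaks (interval 34.9 to 37.4), below the 36.7% to 40.3% of the autosomes. The share was 37.3% of the strongest 1000 and 36.1% of the 155 in replicate 2, where the autosomes ranged from 27.9% to 55.3%. Peaks in replicate 2 numbered 9 to 25 per stretch, with the most in the eighth from the left. The occurrences of GCGCAGGG numbered 5 to 12 per stretch. Neighbouring X peaks were a median of 1965 bp apart, those in the thresholded list 405851 bp and the strongest 25 a median of 522810 bp.

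**Figure D5:**
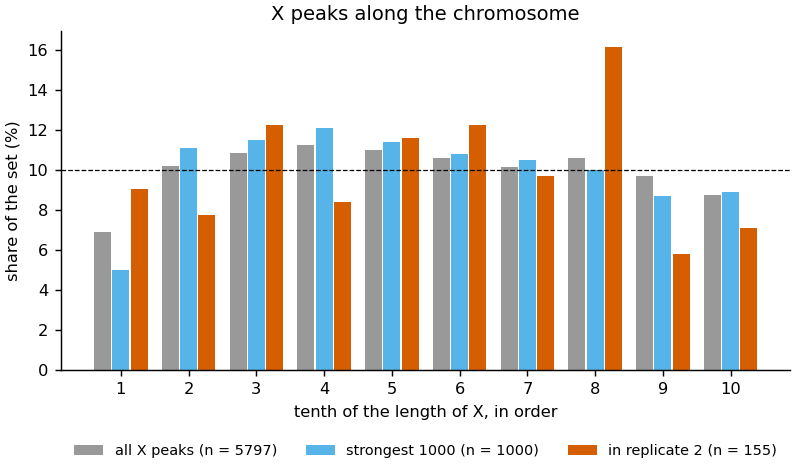
Share (percent) of all X peaks, of the strongest 1000 and of the 155 in replicate 2 in each of 10 equal stretches of X, with a dashed line at an even 10%. The leftmost holds 400 of 5797 peaks and the eighth holds 25 of the 155.

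Genes that run dosage compensation and its sex switch had no strong peak at their own 5′ ends. Of 6 such genes on X, 4 had a replicate 1 peak within 1000 bp of the 5′ end, where 1443 of the 2731 protein-coding genes of X had one (52.8%). The closest to xol-1 by that measure was a peak 872 bp away with a score of 14.5 (X rank 470), apart from the stronger position farther upstream. At sdc-2, the gene that directs the complex to X in hermaphrodites, the best was a peak of 10.3 (rank 1962). In its gene body lay 5 summits, a count not set beside other genes. At sdc-1, which acts with sdc-2, the best had 9.39 (rank 2557), and at fox-1, an RNA-binding protein gene that counts X chromosomes, 9.49 (rank 2487, 233 bp). None of these was in replicate 2, the pooled or the thresholded list. The X signal genes sex-1 and ceh-39 had none within 1000 bp, with the nearest summits 1823 and 2083 bp away. Of the 11 genes of the list on the autosomes, 6 had a peak within that distance, and that at sea-1, on II, was the only one in replicate 2 and the pooled list. The share over all autosomal protein-coding genes was not computed, so the 6 are not read as a result about these genes.

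The sequence known for the Myt1 family itself was rare at the strong X peaks. AAGTTT, the core of Myt1-family sites, on either strand, lay within 100 bp of 23.9% of X summits and 22.9% of autosomal ones, and in 34.1% and 32.5% of all windows of that size. It was found at 0 of the 25 strongest X peaks, at 12 of the next 75 (16%) and at 24.8% of those beyond rank 1000. On the autosomes it was at 15 of the 125 peaks of ranks 1 to 25 (12%, range 4% to 16%). Among the strongest 1000 X peaks, it lay at 3 of the 59 in replicate 2 (5.08%) and at 194 of the 941 others (20.6%). Over all X peaks there was no such gap, with 36 of the 155 in replicate 2 (23.2%) and 1352 of the 5642 others (24%). GC content moved with rank as well, from a median of 45.3% in the strongest 25 to 39.8% beyond rank 1000, against 34.8% in all X windows. How far the AT-rich letters of AAGTTT follow base composition was not tested.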

How the data were processed

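The deposited files are the authors' lists, which by their names hold peaks and background, except the thresholded one. Per the labels' text records, 1 list was derived from each replicate's alignment with a control file used for both replicates, 1 pooled list from both alignments, and 1 thresholded list from these 3 by irreproducible discovery rate. Of the peak caller, aligner, filters and threshold, the sources used here give nothing. The deposited values per peak are the authors' signal score and, by the column order of a 10-column peak file, a -log10 q-value, both as the authors gave them. Without read numbers in the lists, library depth is unknown.

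The ce11 lists were read with the WBcel235 sequence and annotation of Ensembl release 115, using Python 3.11, numpy 2.4.6, scipy 1.17.1 and matplotlib 3.10.9. Positions are 1-based, 0 peaks ended past a chromosome, and nothing was filtered. Peaks were ranked by signal score. Lists were matched by an overlap of at least 1 bp. A promoter was 500 bp either side of a protein-coding 5′ end. Exon, intron and intergenic classes were set by protein-coding genes alone. Sequences were searched on both strands within 100 bp of the summit and in tiled windows of equal size. The counting of overlaps and motifs was checked on simulated data with known answers, which served as no comparison for the results. No statistical test was made, as 2 replicates of 1 group give positions, not conditions. Shares carry exact Clopper-Pearson 95% intervals. Named were the 25 strongest X peaks, those in all 4 lists, and 17 dosage compensation genes. The members and lists were chosen with earlier results of these data known. The alternatives varied overlap, windows, motif, promoter distance, gene types, rank and replicate.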

Additional observations from a re-analysis of the deposited data

How the results depend on the processing

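Of 29 alternatives, 12 left the value within the counting interval of the main result and 17 moved it outside. The interval of the alternative itself was not weighed in this count. The share of X peaks in replicate 2 (2.67%) was 1.93% with an overlap of 50% of the shorter peak, 1.48% with summits within 100 bp and 5.9% for the strongest 1000. The pooled share (2.36%) was 10.4% for the strongest 1000, and without replicate 1, for the X peaks of replicate 2, 20.8%. The GCGCAGGG share of the strongest 100 (8%) was 1% for the reversed order, 22% with 1 mismatch (2.6% of X windows) and 16% for the strongest 50. Without replicate 1, for the strongest 100 of replicate 2, it was 12%. The promoter share (17.6%, and 18% for the strongest 100) was 30.7% and 31% with 1000 bp, 32.4% and 39% with genes of every type, 18.8% for the strongest 1000, and 17.9% and 15% without replicate 1. The middle part of X held 33% without replicate 1, with an interval of 28.1 to 38.2 that holds the main 36.1%. The same goes for GCGCAGGG in the strongest 50 (interval 7.17 to 29.1, main 8%). It goes also for promoters in the strongest 1000 (interval 16.4 to 21.4, main 17.6%). Sites in a peak (34.6%) were 15.9% for the reversed order, 19.8% without replicate 1 and 84.6% when preceded by ATC. That last choice, and the restriction to peaks without repeated words, which gave 8% again, were made after seeing the data. For the changed motif, distance or gene type the alternative itself redefines what is counted. For the rest the cause was not tested. Recurrence without replicate 2 has no value. No paired analysis was possible because there is 1 group and the results come from no test. Depth is unknown, so a position missing from replicate 2 may have been too weak to list there.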
